A study of Mus musculus with 8 samples.

Results

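The interleukin 1 (IL-1) system was followed through its 6 genes in the table of read counts, chosen by symbol: the ligands Il1a and Il1b, the receptor antagonist Il1rn, the accessory receptor chain Il1rap, the signalling receptor Il1r1 and the decoy receptor Il1r2. These are 6 of the 23143 genes of the table, and each has 1 row. RNA was sequenced from RAW264.7 cells, an established mouse macrophage line, in 8 libraries, 1 from unstimulated cells (0 min) and 1 each from cells stimulated with 100 ng/ml LPS, a bacterial cell wall component, for 15, 30, 45, 60, 75, 90 or 120 min. The labels give no genotype difference and no second agent, and describe the RNA fraction as cytoplasmic, although the molecule is given as total RNA and the protocols mention no fractionation of the cells. Each time point has 1 library of 1 culture of a single cell line, so differences between libraries have no replicate check, and every interval given is a 95% interval for counting error alone.

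IL-1 alpha and IL-1 beta are inflammatory cytokines that signal through the same receptor. Ligand binding to the receptor encoded by Il1r1 recruits the chain encoded by Il1rap, and the assembled complex engages MyD88 and the IRAK kinases. The antagonist encoded by Il1rn occupies the receptor without recruiting the accessory chain, and the receptor encoded by Il1r2 binds ligand but lacks a signalling domain. In macrophages, IL-1 beta is made as a precursor that is cleaved by caspase-1 in inflammasomes such as the one built on NLRP3, whereas the IL-1 alpha precursor is already active and can be cleaved by calpains.

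Library totals lay between 100250892 reads (75 min) and 159077286 reads (120 min). A count of 0 allowed at most 0.0189 to 0.0299 counts per 1e6 reads of the library (cpm). Counts were divided by size factors of 0.71 to 1.23 to give normalized counts. The ribosomal RNA precursor Rn45s took 8.18% to 9.11% of the reads at 0, 30, 60 and 120 min and 13% to 20.5% at 15, 45, 75 and 90 min. Consecutive libraries thus lay on different sides of this split, except those of 75 and 90 min. Apart from other ways of scaling, whether the split contributed to differences between consecutive libraries was not tested. All 7 macrophage markers examined were detected in every library, with at least 4411 reads each and a summed level of 5430.0 to 6624 cpm. The markers of T cells, B cells, fibroblasts, epithelial cells and neutrophils reached at most 16 reads in any library.

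In RefSeq coordinates of GRCm38, the build of the deposited counts (mm10), Il1a (chr2:129299609-129310186, minus strand) and Il1b (chr2:129364569-129371164, minus strand) are neighbours on chromosome 2, separated by 54382 bases. Il1rn (chr2:24336860-24351491, plus strand) lies on the same chromosome, 104948117 bases from Il1a. Il1r2 (chr1:40084692-40125230) and Il1r1 (chr1:40222480-40316201) are 97249 bases apart on the plus strand of chromosome 1, and Il1rap (chr16:26581509-26730128, plus strand) is on chromosome 16. None of the 6 genes shared a 58-base word, the length of the reads, with the transcripts of another gene in the same direction. Matches to the opposite strand and matches with mismatches, which the mapping allowed, were not searched. Il1a overlaps the noncoding gene Gm14023, which had 3 to 9 reads in the 8 libraries, and Il1r2 overlaps Gm16894, which had 0. The noncoding genes Il1bos, which overlaps Il1b, and Gm20319, which overlaps Il1rap, have no row in the table. Since the strand setting of the mapping was not given, it is not known whether reads from them were counted for Il1b and Il1rap.

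The promoters of the ligands, of the antagonist and of the accessory chain are shown because their mRNAs behaved differently after LPS. Each sequence covers 250 bases before and 50 bases after a RefSeq start in GRCm38, in the direction of the gene, and capitals mark matches to the motifs searched. For Il1a it is chr2:129309923-129310222 (minus strand), for Il1b chr2:129371090-129371389 (minus strand), for Il1rn chr2:24336610-24336909 (upstream start) and chr2:24345041-24345340 (downstream start), both on the plus strand, and for Il1rap chr16:26581455-26581754 (plus strand).
Il1a promoter: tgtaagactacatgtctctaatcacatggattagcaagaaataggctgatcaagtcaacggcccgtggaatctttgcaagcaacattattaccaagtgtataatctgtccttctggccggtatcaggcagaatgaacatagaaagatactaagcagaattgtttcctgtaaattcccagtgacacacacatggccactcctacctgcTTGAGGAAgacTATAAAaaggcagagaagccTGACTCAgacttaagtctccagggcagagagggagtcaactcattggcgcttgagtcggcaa
Il1b promoter: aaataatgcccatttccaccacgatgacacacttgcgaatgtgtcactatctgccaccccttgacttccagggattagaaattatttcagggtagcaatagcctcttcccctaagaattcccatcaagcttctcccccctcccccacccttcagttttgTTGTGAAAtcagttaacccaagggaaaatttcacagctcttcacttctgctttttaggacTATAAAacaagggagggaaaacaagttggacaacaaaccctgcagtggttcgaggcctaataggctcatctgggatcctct
Il1rn promoter, upstream start: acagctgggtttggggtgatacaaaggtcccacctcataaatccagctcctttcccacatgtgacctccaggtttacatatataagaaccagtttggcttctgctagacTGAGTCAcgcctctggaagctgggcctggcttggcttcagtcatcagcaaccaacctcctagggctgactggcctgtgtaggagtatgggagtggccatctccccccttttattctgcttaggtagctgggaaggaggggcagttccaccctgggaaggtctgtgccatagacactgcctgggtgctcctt
Il1rn promoter, downstream start: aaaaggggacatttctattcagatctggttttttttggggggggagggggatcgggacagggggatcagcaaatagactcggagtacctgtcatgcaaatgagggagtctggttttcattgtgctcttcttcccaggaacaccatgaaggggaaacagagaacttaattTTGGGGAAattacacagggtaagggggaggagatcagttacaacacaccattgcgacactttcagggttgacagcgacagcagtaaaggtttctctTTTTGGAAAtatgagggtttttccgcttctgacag
Il1rap promoter: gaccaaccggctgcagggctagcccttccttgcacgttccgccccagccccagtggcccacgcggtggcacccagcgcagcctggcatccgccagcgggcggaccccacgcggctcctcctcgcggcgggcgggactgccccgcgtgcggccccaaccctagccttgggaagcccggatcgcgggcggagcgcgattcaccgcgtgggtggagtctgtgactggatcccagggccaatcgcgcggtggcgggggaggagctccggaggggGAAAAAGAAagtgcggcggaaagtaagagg

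Motifs were searched on both strands in all 32851 mouse promoters of this length. The TATA box letters TATAAA stood 32 bases before the start of Il1a and 31 bases before that of Il1b. They were absent from the windows of Il1rap, Il1r1 and Il1r2 and from those at the upstream and downstream starts of Il1rn shown above, and 13.6% of all promoters held them. Another Il1rn window of the RefSeq promoters, which overlaps that at the downstream start, held them on the minus strand after the start and is not shown. The C/EBP letters TTNNGNAA, present in 40.7% of promoters, were found 43 bases before the start of Il1a and 91 bases before that of Il1b. At Il1a these letters overlapped the PU.1 letters GAGGAA (28.3% of promoters), and the AP-1 letters TGANTCA (7.81%), which read the same on both strands, followed 12 bases before the start. The window at the upstream Il1rn start held the AP-1 letters 141 bases before the start, and the window at the downstream start held C/EBP letters 81 bases before it and, as overlapping matches, just after it. The Il1rap window had a GC content of 72%, against 44.7% for Il1a and 45.7% for Il1b, and held only the IRF letters GAAANNGAA (8.56% of promoters), downstream of the start. A match to the NF-kB consensus, which 4.51% of promoters held, was present among the 6 genes only in 1 of the windows of Il1r1, and no motif was found in that of Il1r2. These matches describe the letters of the windows, and binding was not measured.

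The ligands and the antagonist also differed in the 3' untranslated region, where AUUUA pentamers are the core of the AU-rich elements of many unstable cytokine mRNAs. The Il1b region of 459 bases held 4 such pentamers (8.71 per kb) and the Il1a region of 1101 bases held 3 (2.72 per kb). None was found in the regions of the 3 Il1rn transcripts, which have 177, 1306 and 1864 bases. The 4 Il1rap transcripts held 0, 2, 4 or 8 (0 to 2.99 per kb) and both Il1r1 transcripts 8 (2.07 and 2.85 per kb). The density of Il1a lay within these ranges and that of Il1b above them. The share over the 3' regions of all genes was not computed. The windows of 30 bases with the most pentamers, at bases 573 to 602 of the Il1a region and 192 to 221 of the Il1b region, are given as DNA with the pentamers, some of which overlap, in capitals.
Il1a 3' region: attttatctatgtATTTAtaaatatATTTA
Il1b 3' region: caaccacttacctATTTATTTAtgtATTTA

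Of the 6 genes, Il1a, Il1b, Il1rn and Il1r1 were higher at 120 min than at 0 min, Il1rap stayed within 1.26-fold of its starting level and Il1r2 was close to the limit of detection throughout. A gene was called higher or lower between a pair of libraries when the ratio of its normalized counts lay beyond 0.5 on the log2 scale and an exact negative binomial test, with the dispersion fitted over all 8 libraries, passed an unadjusted p limit of 0.05. Such a call compares 2 libraries and not 2 conditions. Against 0 min, no member was called higher at 15 min, where 0.295% of all genes tested were. At 30 and 45 min 2 members, Il1a and Il1b, were called higher, beside 1.14% and 3.8% of all genes. In each of the 4 later libraries 4 members were called higher, with Il1rn and Il1r1 added to the ligands, beside 3.43% (60 min), 4.77% (75 min), 5.79% (90 min) and 7.63% (120 min) of all genes. No member was called lower at any time. All of these comparisons share the library of unstimulated cells.

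**Figure D1:**
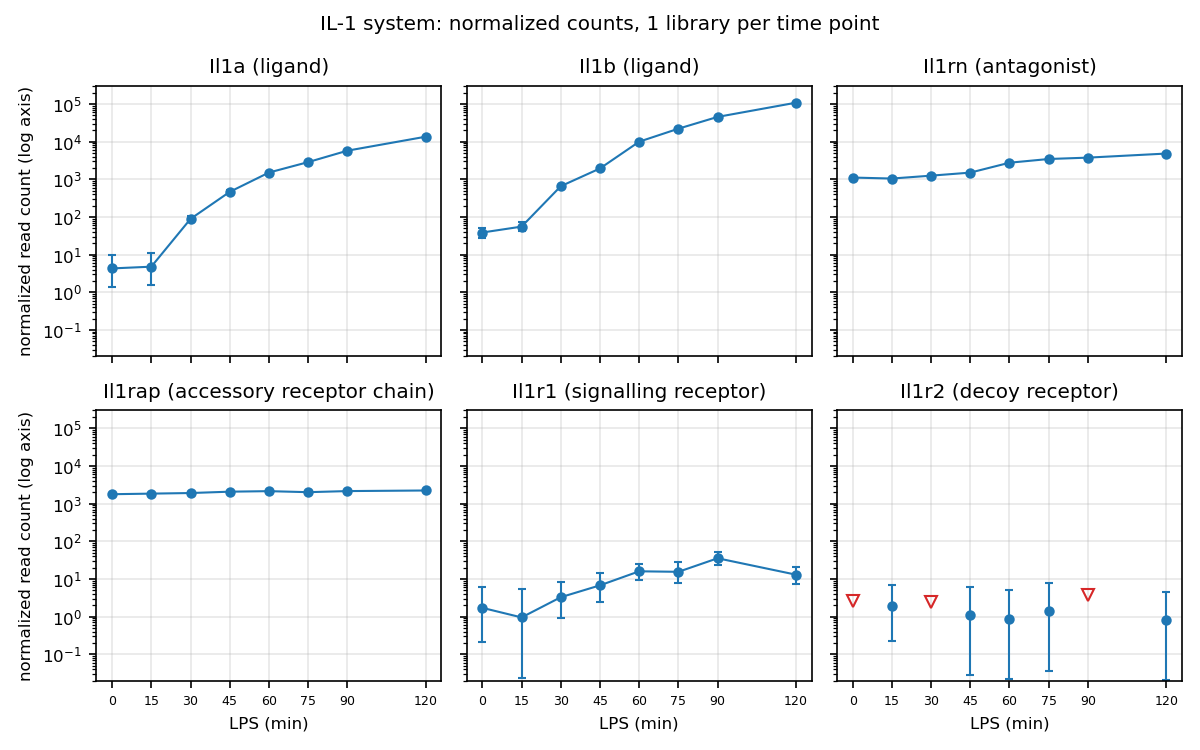
Normalized read count (log axis) of each IL-1 system gene against time of LPS in min, 1 library per point; bars are 95% Poisson intervals and open triangles mark libraries with 0 reads, drawn at the level that 3 reads would give. Il1a and Il1b climb from 4.28 and 38.5 to 13504 and 108097, Il1rn from 1109.6 to 4816, Il1rap stays between 1785 and 2242, Il1r1 peaks at 35.5 and Il1r2 has at most 2 reads.

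Il1a, the ligand whose precursor is active without cleavage, was almost absent from unstimulated cells. It had 5 reads in each of the 0 and 15 min libraries, and then 108, 409, 1691, 2026, 4519 and 16662 reads in the 6 libraries from 30 min on. In normalized counts the 8 values were 4.28, 4.76, 88.4, 462, 1506, 2853, 5737 and 13504. The level was thus indistinguishable between the first pair of libraries (ratio 1.11, interval 0.256 to 4.83) and higher in each later library than in the one before. The ratio to unstimulated cells was 20.7 (8.59 to 65) after 30 min, 667 (285 to 2056) after 75 min and 1341 (574 to 4133) after 90 min of LPS. The width of these intervals comes from the 5 reads of the 0 min library.

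Il1b, the ligand that needs cleavage, started higher. In order of time its counts were 45, 58, 799, 1716, 11187, 15654, 35689 and 133379, or 38.5, 55.2, 654, 1938, 9961, 22044, 45311 and 108097 after normalization. At 15 min the ratio to 0 min was 1.43 (0.955 to 2.17), which was not called and whose interval includes 1. It was 17 (12.6 to 23.5) after 30 min, 573 (428 to 785) after 75 min and 1177 (879 to 1614) after 90 min of LPS. Ranked by reads, Il1b moved from place 11097 of the 14666 genes with a read at 0 min to place 2449 of 14836 at 60 min and 135 of 15009 at 120 min, and Il1a from 12631 to 7661 and 1877. Among the 14666 genes with a read at 0 min, the ratio at 120 min placed Il1a at rank 2 and Il1b at rank 4.

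Between consecutive libraries, the ligands were called higher in each of the 6 intervals from 15 min on. Members called higher numbered 2 from 15 to 30 min, 2 from 30 to 45 min, 3 from 45 to 60 min, when Il1rn joined them, and 2 in each of the intervals 60 to 75, 75 to 90 and 90 to 120 min. Of all genes tested, 0.884%, 1.13%, 1.07%, 0.627%, 0.251% and 0.908%, respectively, were called higher in these intervals. The calls from 45 min on were sensitive to the call rule. From 45 to 60 min only the ligands were called with Benjamini-Hochberg adjustment or when a ratio of 2 was required. With the adjustment no member was called in the last 3 intervals, and for 60 to 75 min Il1a was no longer called when libraries were scaled to total counts or when a ratio of 2 was required.

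From 0 to 15 min the fold change per 15 min was 1.11 (0.256 to 4.83) for Il1a and 1.43 (0.955 to 2.17) for Il1b. Over the later intervals it was largest from 15 to 30 min and smallest from 90 to 120 min for both ligands. For Il1a it was 18.6 (7.72 to 58.4) from 15 to 30 min, 5.22 (4.22 to 6.52) from 30 to 45 min, 3.26 (2.92 to 3.64) from 45 to 60 min, 1.89 (1.78 to 2.02) from 60 to 75 min, 2.01 (1.91 to 2.12) from 75 to 90 min and 1.53 (1.51 to 1.56) from 90 to 120 min. For Il1b it was 11.9 (9.07 to 15.8), 2.96 (2.72 to 3.23), 5.14 (4.88 to 5.41), 2.21 (2.16 to 2.27), 2.06 (2.02 to 2.09) and 1.54 (1.54 to 1.55). From 15 min on the ligands therefore exchanged order once. The fold of Il1a was the larger from 30 to 45 min and that of Il1b from 45 to 60 min, and neither pair of intervals overlaps. Both steps share the 45 min library, so their order rests on that 1 library and has no replicate check. The step from 60 to 75 min does not use that library, and there too the fold of Il1b was the larger, with intervals that do not overlap. In absolute terms the gain did not slow. The normalized count of Il1b rose by 599 per 15 min from 15 to 30 min, by 1284 from 30 to 45 min, by 8023 from 45 to 60 min, by 12083 from 60 to 75 min, by 23267 from 75 to 90 min and by 31393 from 90 to 120 min. At 60 min Il1a stood at 11.1% and Il1b at 9.21% of the level at 120 min, and at 90 min at 42.5% and 41.9%.

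**Figure D2:**
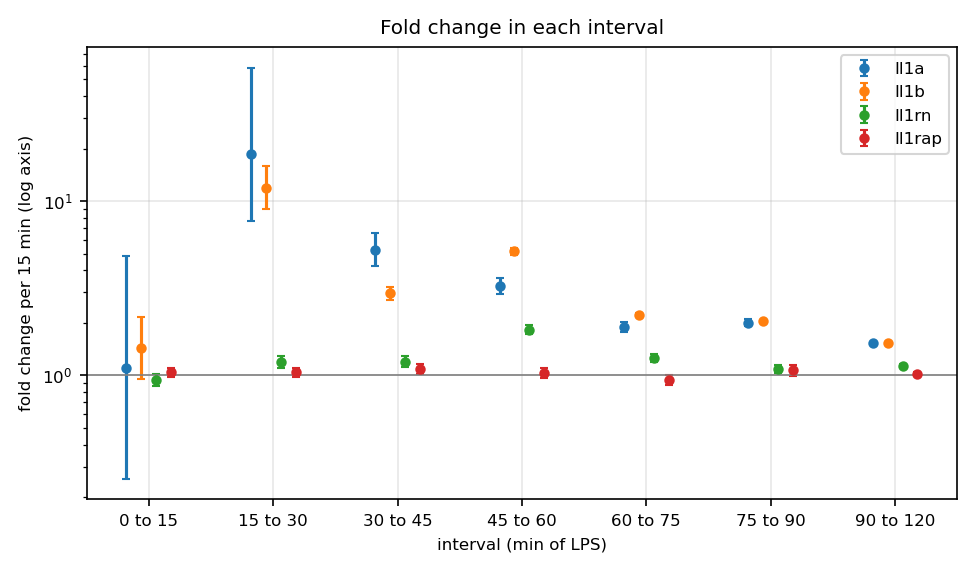
Fold change of the normalized count per 15 min (log axis) between consecutive libraries for Il1a, Il1b, Il1rn and Il1rap; bars are 95% counting intervals and the grey line marks no change. The ligands are far above 1 from 15 min on, with Il1a above Il1b from 30 to 45 min and below it from 45 to 60 min, Il1rn departs most in that latter interval (1.83), and Il1rap stays near 1.

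Levels of different genes were compared per length, as reads per kb of transcript and per 1e6 reads of the library (rpkm). In rpkm, Il1b exceeded Il1a in all 8 libraries. The ratio of their rpkm was 13.3 (5.29 to 42.9) before stimulation and 17.1 (6.93 to 54.7), 10.9 (8.92 to 13.5) and 6.19 (5.56 to 6.91) after 15, 30 and 45 min. It was 9.76 (9.28 to 10.3), 11.4 (10.9 to 11.9), 11.7 (11.3 to 12) and 11.8 (11.6 to 12) after 60, 75, 90 and 120 min. The 45 min library stood below its neighbours in time, with an interval that overlaps neither, and the ratios at 75, 90 and 120 min were not distinguishable from one another. Both genes are read from the same library at each time, so this ratio does not depend on how libraries were scaled.

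Il1rn, the antagonist, was already present in unstimulated cells and rose later and less than the ligands. Its counts in order of time were 1297, 1097, 1522, 1329, 3088, 2451, 2955 and 5942, and its normalized counts 1109.6, 1044, 1246, 1501, 2749.5, 3451, 3752 and 4816. The first 4 libraries lay below the last 4. The ratio to 0 min was 1.12 (1.04 to 1.21) after 30 min and 1.35 (1.25 to 1.46) after 45 min of LPS, and neither was called. It was 2.48 (2.32 to 2.65), 3.11 (2.91 to 3.33), 3.38 (3.17 to 3.61) and 4.34 (4.09 to 4.61) after 60, 75, 90 and 120 min, and each of these was called higher. The interval from 45 to 60 min, with a ratio of 1.83 (1.72 to 1.95), was the only step called, and this call was lost with Benjamini-Hochberg adjustment, with a log2 limit of 1 and with the rule of at least 2-fold. At 60 min Il1rn had reached 57.1% of its level at 120 min.

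With the lengths used here, the antagonist mRNA outnumbered both ligand mRNAs before stimulation, and by 120 min the order was inverted. In rpkm, Il1rn was 3.67 (3.47 to 3.87) at 0 min, 13.9 times (10.3 to 19.1) the level of Il1b, 0.264 (0.193 to 0.354), and 184 times (78.7 to 568) that of Il1a, 0.0199 (0.00646 to 0.0464). At 30 min Il1b and Il1rn were level, with 4.41 and 4.04 rpkm and a ratio of 1.09 (1 to 1.19). In the later libraries the ratio of Il1b to Il1rn was 2.68, 7.53, 13.3, 25.1 and, after 120 min, 46.7 (45.5 to 47.9). Il1a was still below Il1rn at 60 min, with a ratio of 0.771 (0.726 to 0.819), and above it at 75 min, with 1.16 (1.1 to 1.24), and the ratio reached 3.95 (3.83 to 4.07) at the end of the series. The level of Il1rn per length depends on which of its 3 transcripts were present, which a count per gene symbol does not show: with the longest transcript as the length, Il1rn at 120 min was 15.5 instead of 13.8 rpkm. The ratio of Il1b to Il1rn was then 0.977 (0.896 to 1.06) at 30 min and that of Il1a to Il1rn 1.04 (0.982 to 1.11) at 75 min. With this length Il1a was distinguishably above Il1rn only from 90 min on. The shortest Il1rn transcript has 728 bases. Ratios with that length would be lower and were not computed, so the order of Il1a and Il1rn in the late libraries is not settled. These are levels of mRNA, and the libraries hold no measure of protein. In separate assays of culture supernatants by flow cytometry, the study did not detect secreted IL-1 alpha or IL-1 beta after LPS.

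**Figure D3:**
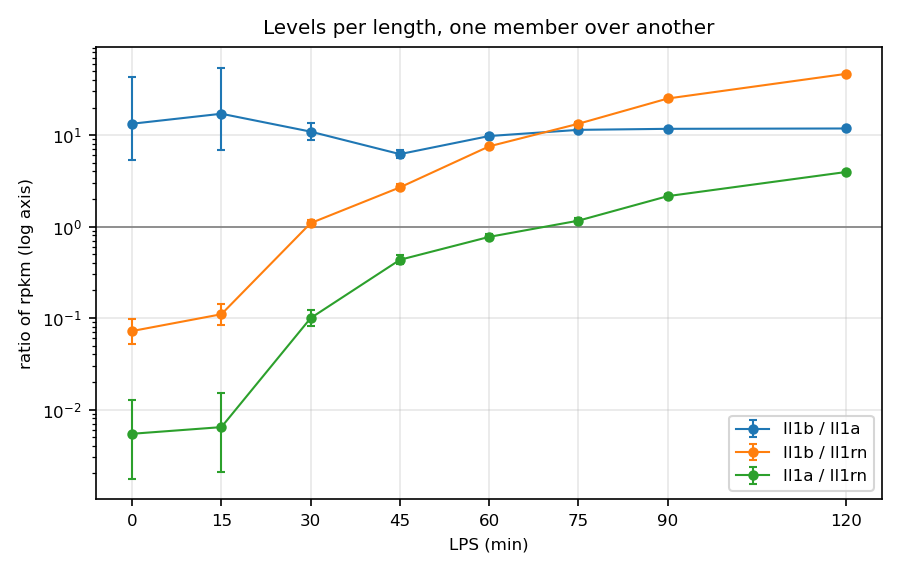
Ratio of rpkm (log axis) between pairs of IL-1 system genes in each library against time of LPS in min; bars are 95% counting intervals and the grey line marks equal levels. Il1b over Il1rn is near 1 at 30 min and ends at 46.7, Il1a over Il1rn passes 1 between 60 and 75 min and ends at 3.95, and Il1b over Il1a dips to 6.19 at 45 min and is 11.4 to 11.8 from 75 min on.

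Il1rap, the accessory chain shared by several receptors of the family, changed little. Its counts were 2087, 1945, 2344, 1846, 2418, 1436, 1703 and 2766 from 0 to 120 min, and its normalized counts 1785, 1851, 1919, 2085, 2153, 2022, 2162 and 2242. Against 0 min the ratio lay between 1.04 (0.974 to 1.1) at 15 min and 1.26 (1.19 to 1.33) at 120 min and was called at no time. On the scale of total reads the direction of this small difference was not the same at all times: Il1rap had 1.85 rpkm (1.77 to 1.93) at 0 min, 1.67 (1.58 to 1.75) at 75 min, where Rn45s took 20.5% of the reads, and 2.02 (1.95 to 2.1) at 120 min. With the longest transcript as the length, the level at 120 min was 3.9 rpkm, since the 4 annotated Il1rap transcripts differ in length and in their 3' regions.

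Il1r1, the receptor that carries the signal, was rare in every library. In order of time it had 2, 1, 4, 6, 18, 11, 28 and 16 reads, or 1.71, 0.952, 3.28, 6.78, 16, 15.5, 35.5 and 13 normalized counts. The 4 libraries from 60 min on were all above the 4 earlier ones and were called higher than 0 min, with ratios of 9.37 (2.24 to 83.2), 9.05 (1.98 to 84.1), 20.8 (5.24 to 180.0) and 7.58 (1.78 to 67.9). The calls at 60, 75 and 120 min were lost with Benjamini-Hochberg adjustment, and also when genes under a mean of 10 normalized counts were left out and the dispersion was fitted again, while the call at 90 min was made under every alternative. The ratio from 90 to 120 min was 0.365 (0.184 to 0.698), which was not called, although a rule of at least 2-fold with an interval beyond 1 would call it lower. The highest level, at 90 min, was 0.0437 rpkm (0.029 to 0.0632), and Il1rap was 42.8 times (29.5 to 64.7) as high in the same library and 122 times (74.8 to 213) at 120 min. With the longest transcript as the length of both genes these ratios were 78.5 (54.1 to 119) and 223 (137 to 391).

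Il1r2, the decoy receptor, had 0, 2, 0, 1, 1, 1, 0 and 1 reads in the 8 libraries. A count of 0 allowed up to 0.0138 to 0.022 rpkm, and no library was above this limit. No fold change is given, and a difference between time points was not detectable at this depth. For both receptors, few reads in bulk RNA cannot tell apart few expressing cells and little RNA in each cell.

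The remaining genes of the pathway were examined in 4 lists with 33 genes in all: other ligands, other receptors, precursor processing and release, and receptor signalling. At 120 min, 10 of the 33 were called higher and 1 lower than at 0 min, where 7.63% of all genes tested were called higher and 6.7% lower. In the earlier libraries 0 (15 min), 1 (30 min), 2 (45 min), 4 (60 and 75 min) and 5 (90 min) of the 33 were called higher, where the shares of all genes were 0.295%, 1.14%, 3.8%, 3.43%, 4.77% and 5.79%, and 1, Tab1, was called lower at both 75 and 90 min. The calls at 120 min depended on the setting. Il33, Il1f6, Casp4, Nlrp3 and Irak2 were called higher under every alternative, whereas only 5 genes were called when libraries were scaled to total counts, which lowers every log2 ratio at 120 min by 0.20, and 5 with Benjamini-Hochberg adjustment.

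Of the 7 other ligands, Il33 and Il1f6 rose and 3 (Il1f5, Il1f8 and Il1f10) had no read in any library. Il33, an alarmin cytokine, had 0, 1, 0, 0, 4, 24, 30 and 111 reads in order of time and at 120 min was at least 35.1-fold higher than the 3 reads that a count of 0 allows at 0 min. Il1f6, which encodes IL-36 alpha, had 0, 2, 5, 4, 10, 7, 20 and 48 reads and was at least 15.2-fold higher at 120 min. Il18, the other ligand that caspase-1 cleaves, had the highest level of the list at 0 min and a ratio of 1.04 (0.943 to 1.14) at 120 min, from 731 to 757 normalized counts. The median log2 ratio of the list at 120 min, with 1 added to each normalized count, was 0.05, against 0.00 over all genes of the table. Genes without a read enter both medians as 0.

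Of the 7 other receptors 0 were called at 120 min, and their median log2 ratio was 0.37. Il1rl1, the IL-33 receptor, was the most abundant at 0 min and had 7486 normalized counts there and 11601 after 120 min, a ratio of 1.55 (1.51 to 1.59). Its normalized counts in the last 3 libraries, 10099 to 11601, were above those of the first 5, 6877 to 8563, and the gene was called higher at 120 min only when genes under a mean of 10 normalized counts were left out. Sigirr, an inhibitory receptor of the family that is named only because of its values, had 500.5 normalized counts before stimulation and 320.1 after 120 min, a ratio of 0.64 (0.562 to 0.728) that was called lower only when Rn45s was left out of the total used for scaling. Il1rl2, the IL-36 receptor, named for the same reason, had 0 reads at 0 min and 7 at 120 min and was called higher only by the rule of at least 2-fold.

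Of the 8 genes for processing and release, Nlrp3, Casp4 and Il18bp were called higher at 120 min, and the median log2 ratio was 0.14. The call of Il18bp was lost with total counts and with Benjamini-Hochberg adjustment, among other alternatives. Nlrp3, the sensor of the inflammasome, went from 3981 normalized counts at 0 min through 4748, 15164, 40932, 48566, 49112 and 51613 to 58263 at 120 min, a ratio of 14.6 (14.2 to 15.1). Most of this rise was complete by 45 min, when Nlrp3 stood at 10.3 times (9.97 to 10.6) its level at 0 min. Casp4, the caspase that senses intracellular LPS, rose from 956 to 2447 normalized counts (ratio 2.56, 2.39 to 2.74), and Il18bp, the secreted inhibitor of IL-18, from 44.5 to 98.9 (2.22, 1.59 to 3.14). Capn2, a calpain, was the most abundant at 0 min, with 18379 normalized counts and a ratio of 1.21 (1.19 to 1.23) at 120 min. Casp1 and Pycard are named here because of their values, outside the rule for naming genes. Casp1, the protease that cleaves the Il1b product, had 7839 normalized counts before stimulation and 6357 after 120 min, a ratio of 0.811 (0.787 to 0.836) that was not called. Pycard, the adaptor that links NLRP3 to caspase-1, had 0 reads in 7 libraries and 2 reads at 90 min.

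Of the 11 signalling genes, 5 were called higher at 120 min, 1 lower and 5 not called, with a median log2 ratio of 0.42. Of all genes tested, 7.63% were called higher and 6.7% lower. Among these signalling genes only the call of Irak2 was made under every alternative. The call of Tollip was kept only when genes under a mean of 10 normalized counts were left out. Irak2, a kinase of the receptor complex, rose from 3410 to 8083 normalized counts (ratio 2.37, 2.28 to 2.46) and Irak3, an inhibitory member of the same family, from 1386 to 2735 (1.97, 1.86 to 2.1). Irak2 had 3989 normalized counts at 75 min and 5130.4 at 90 min, so that most of its difference arose in the last 2 libraries. Tab2 and Tab3, adaptors of the kinase TAK1, had ratios of 1.79 (1.74 to 1.84) and 1.7 (1.6 to 1.82), and Tollip, a negative regulator, 1.61 (1.57 to 1.66). Tab1, a partner of the same kinase, fell from 4666 to 2547 normalized counts, a ratio of 0.546 (0.522 to 0.571), and was lower in each library up to 90 min than in the one before. Myd88, the adaptor that receptors for IL-1 share with Toll-like receptors, had the highest level of the list at 0 min, 11701 normalized counts, and a ratio of 1.17 (1.15 to 1.2) at 120 min.

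**Figure D4:**
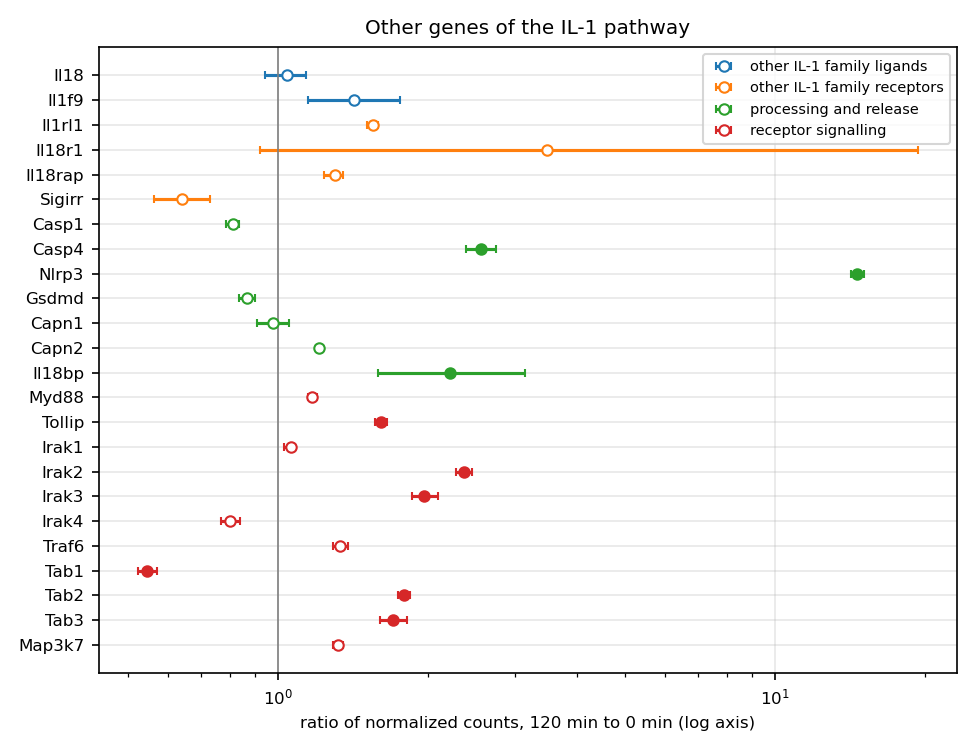
Ratio of normalized counts at 120 min to 0 min (log axis) for the 24 of 33 other IL-1 pathway genes with a ratio, coloured by list; bars are 95% counting intervals, filled points were called and open points were not. Nlrp3 (14.6) lies farthest to the right and Tab1 (0.546) is the only filled point left of 1, and the 9 genes not drawn, among them Il33 and Il1f6, had 0 reads at 0 min.

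The genes with the most similar course were found by Pearson's r of log2(normalized count + 1) over the 8 libraries, among 10494 genes whose normalized counts averaged at least 100. Nearest to Il1a were Cxcl10 (0.9969), Il1b (0.9968), Sdc4 (0.9958), Mat2a (0.9956) and Gp49a (0.9955). Nearest to Il1b were Il1a (0.9968), Slfn2 (0.9962), Rrs1 (0.9952), Cxcl10 (0.9947) and Gp49a (0.9928). By this measure each ligand was among the 2 genes closest to the other. The similarity is one of shape and not of size: from 0 to 120 min Mat2a went from 35404 to 66536 normalized counts and Cxcl10, a chemokine, from 201 to 28895. Nearest to Il1rn were Adam17 (0.9982), a protease that sheds membrane proteins, Wdr1 (0.9980), Kcmf1 (0.9980), Ndel1 (0.9973) and Ppp2ca (0.9972). Nearest to Il1rap were Cep55 (0.9852), Nxt2 (0.9834), Pde4b (0.9801), Zfp719 (0.9777) and Mapk8 (0.9753), and nearest to Il1r1 were Aste1 (0.9911), Tceb1 (0.9873), Gnl3 (0.9815), Gtf2b (0.9771) and Spag1 (0.9765). Values this high were common, since 404 genes passed 0.95 with Il1a, 495 with Il1b, 653 with Il1rn, 66 with Il1rap and 87 with Il1r1, and all points share the same 8 libraries. Il1r1 had at most 28 reads in a library, so its course, and with it the choice of its nearest genes, is also subject to large counting error. The order among the nearest genes depended on the measure. With untransformed normalized counts, 1 of the 5 nearest genes was shared for Il1a, Il1b, Il1rn and Il1r1 and 3 for Il1rap. With Spearman's coefficient, 0 were shared for Il1a, Il1b, Il1rn and Il1r1 and 2 for Il1rap, but 238 genes, the other ligand among them, were tied at 1 with each ligand and 120 with Il1rn, so that measure does not order them.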

How the data were processed

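RNA of RAW264.7 cells after 0 to 120 min of LPS was sequenced, 1 library for each time. The deposited values are raw counts of reads summed by gene symbol, not normalized by the authors. According to the methods, the authors depleted ribosomal RNA, used Bowtie to map the 58-base reads to mm10 RefSeq transcripts, allowing 2 mismatches, and dropped reads with matches in more than 1 gene symbol. The processing notes of the submitters name CASAVA 1.8.2 and DESeq 1.10.1, while a Bowtie version and a strand setting were not given in the sources used here. No column of values was left unused.

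Size factors by the median of ratios, a fitted dispersion (0.0287 + 0.853/mean) taking the 8 libraries as replicates, and exact negative binomial tests for 13 library pairs (each time against 0 min and against the one before) were computed in Python 3.11.15 (numpy 2.4.6, scipy 1.17.1), after the DESeq settings the authors state, with p-values unadjusted. A quasi-likelihood fit would leave no residual degrees of freedom with 1 library per group. The code was tested on simulated data. Ratios carry exact conditional binomial (Clopper-Pearson) 95% intervals and rpkm values exact Poisson ones. For a count of 0, up to 3 counts were allowed. The length in rpkm is the number of 58-base words in GENCODE vM21 transcripts matched by RefSeq accession, which were found for all 6 genes. Promoters and coordinates are from RefSeq (GRCm38.p6), and 3' regions from the GENCODE transcripts. Alternatives were total counts with and without Rn45s, edgeR 4.0.16 TMM factors, Benjamini-Hochberg adjustment, a log2 limit of 1, a fold rule (at least 2-fold with an interval beyond 1), a filter at a mean of 10 normalized counts, a pseudocount of 1, the longest transcript as the length and other measures of similarity.

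The members and gene lists were chosen with earlier results of these data known. Named are the 6 members, list genes called at 120 min, the most abundant gene of each list at 0 min and the 5 genes most similar to each member that averaged at least 10 normalized counts. The polysome microarrays of the study were not analysed here.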

Additional observations from a re-analysis of the deposited data

How the results depend on the processing

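Against 0 min, the number of members called higher was the same under each alternative at 30, 45 and 90 min. At 60, 75 and 120 min it was 3 instead of 4, without Il1r1, with Benjamini-Hochberg adjustment and with the filter on the mean count, and 4 under the other alternatives. Of the values computed under alternatives, 132 stayed within the limit set for a change, 30 moved, and 2, both ratios of Il1r1 at 120 min, were labelled as having lost a call. A number of 3 instead of 4 members, or of 2 instead of 3, was within that limit. The 132 therefore include numbers that fell because a call was lost. The numbers below are members or genes called, with the reported number in parentheses. From 45 to 60 min, 2 members were called higher (3), without Il1rn, with Benjamini-Hochberg adjustment, a log2 limit of 1 or the fold rule. From 75 to 90 min the fold rule called 3 (2). From 60 to 75 min, 1 member was called higher (2) with total counts, with a log2 limit of 1 and with the fold rule, and 0 with Benjamini-Hochberg adjustment. From 75 to 90 min and from 90 to 120 min, 0 were called (2) with that adjustment. From 90 to 120 min, 1 member, Il1r1, was called lower (0) with the fold rule. Of the other pathway genes at 120 min, 5 were called higher (10) with total counts, 6 with total counts without Rn45s, 5 with the adjustment and 6 with a log2 limit of 1, and 2 were called lower (1) without Rn45s and 0 with the adjustment, the log2 limit of 1 or the fold rule. The ratio of Il1r1 at 120 min was no longer called with the adjustment (7.58) or with the filter on the mean count (7.6). With the longest transcript as the length, Il1rn at 120 min was 15.5 rpkm and Il1rap 3.9 rpkm. Low read numbers limited Il1r1 and Il1r2, with at most 28 and 2 in a library. No paired analysis was possible because each time point has 1 library. No library could be left out of a group for the same reason.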
